A study of Mus musculus with 2 samples.

Results

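The genes described here are 10 members of the CD28 family of receptors on T cells, the B7 family of their ligands, and Tigit, a co-inhibitory receptor of the same functional class. They were found by name on the array, where all 10 were present among 37008 gene names, with 18 of 56605 non-control probes. The 5 receptors were Pdcd1, Ctla4, Cd28, Icos and Tigit, and the 5 ligands were Cd274, Pdcd1lg2, Cd80, Cd86 and Icosl. Lymph node cells without surface CD45, the leukocyte antigen used to leave out blood cells, were sorted from female mice and profiled on 1-color arrays, with 1 array for each group. The normal group came from mice that carried no tumor. The tumor-draining group came from mice, labeled C57BL/6, that had received the mammary carcinoma line 4T1 in the mammary gland 2 weeks before. The labels give neither the age of the mice nor how many were pooled. 4T1 is known as a BALB/c line, so effects of a strain mismatch and of the tumor cannot be told apart here.

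T cells need a second signal beside their antigen receptor. CD28 gives it when it binds CD80 or CD86 on an antigen-presenting cell, ICOS gives a related one through ICOSL, and CTLA-4 competes with CD28 for the same ligands. PD-1, encoded by Pdcd1, binds PD-L1 (Cd274) and PD-L2 (Pdcd1lg2) and dampens signaling, and TIGIT binds ligands of the nectin family outside the B7 group. The receptors are known chiefly from lymphocytes, CD80 and CD86 from dendritic cells, B cells and macrophages, while PD-L1 is also made by stromal and endothelial cells of the lymph node.

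The promoters of the 5 higher members for which a sequence was at hand are shown first, because these genes had higher signals on the same array. Each line holds 250 bases before and 50 bases from the annotated start, in RefSeq's GRCm38.p6 build, with GGAAA or its reverse complement TTTCC, the core recognized by NFAT factors, in capitals.

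Pdcd1 (chr1:94052504-94052803, minus strand): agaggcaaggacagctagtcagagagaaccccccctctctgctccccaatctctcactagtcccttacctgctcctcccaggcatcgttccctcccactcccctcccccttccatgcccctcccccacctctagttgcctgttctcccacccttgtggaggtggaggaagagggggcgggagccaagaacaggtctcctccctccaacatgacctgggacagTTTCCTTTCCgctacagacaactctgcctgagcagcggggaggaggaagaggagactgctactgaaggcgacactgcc
Ctla4 (chr1:60908775-60909074, plus strand): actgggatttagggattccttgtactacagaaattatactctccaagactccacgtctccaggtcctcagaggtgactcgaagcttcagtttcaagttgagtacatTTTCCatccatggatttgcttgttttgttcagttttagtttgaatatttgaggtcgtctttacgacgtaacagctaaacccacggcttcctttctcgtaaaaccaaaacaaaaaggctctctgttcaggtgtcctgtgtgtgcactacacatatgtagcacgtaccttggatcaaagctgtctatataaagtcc
Tigit (chr16:43664135-43664434, minus strand): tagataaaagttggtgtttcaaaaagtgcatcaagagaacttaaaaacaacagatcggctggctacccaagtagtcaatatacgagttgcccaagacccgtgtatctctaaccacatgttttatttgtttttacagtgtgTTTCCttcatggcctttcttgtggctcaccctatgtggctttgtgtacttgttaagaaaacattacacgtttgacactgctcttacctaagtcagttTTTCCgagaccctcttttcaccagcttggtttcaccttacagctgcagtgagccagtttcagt
Cd274 (chr19:29367188-29367487, plus strand): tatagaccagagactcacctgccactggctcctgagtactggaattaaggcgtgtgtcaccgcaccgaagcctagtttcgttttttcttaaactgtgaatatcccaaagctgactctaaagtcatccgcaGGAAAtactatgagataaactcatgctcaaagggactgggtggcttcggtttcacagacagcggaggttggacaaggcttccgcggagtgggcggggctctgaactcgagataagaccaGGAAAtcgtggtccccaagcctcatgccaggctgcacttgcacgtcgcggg
Pdcd1lg2 (chr19:29410669-29410968, plus strand): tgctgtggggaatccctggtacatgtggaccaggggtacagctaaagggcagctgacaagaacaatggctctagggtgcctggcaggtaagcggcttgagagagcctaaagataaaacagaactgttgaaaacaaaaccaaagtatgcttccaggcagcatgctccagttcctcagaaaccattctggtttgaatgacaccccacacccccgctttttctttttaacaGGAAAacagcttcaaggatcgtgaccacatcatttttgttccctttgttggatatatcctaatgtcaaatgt

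Of the 10 members, 7 matched a 300-base promoter in the RefSeq table, and Cd28, Icos and Cd86, all higher members, did not. Each of the 5 printed promoters held the core, with 2 matches in Pdcd1, Tigit and Cd274 and 1 match in Ctla4 and Pdcd1lg2. Cd80 and Icosl, whose brightest probes were within 2-fold between the arrays, held 0 matches. The core lay in 61.3% of all 32851 promoters of this length, so a match is common. Other motifs were searched on both strands. TTCNNNGAA, the site of STAT factors, was in 0 of the 7 promoters against 8.30% of all. An NF-kB motif, GGG and CC with 5 unspecified bases between, had 1 match in Pdcd1lg2 and 2 each in Cd80 and Icosl (50.8% of all promoters held it). TGANTCA, for AP-1, had 1 match in Cd80 (7.81% of all), and TATAAA had 1 match each in Ctla4 and Cd80 (13.6% of all). Both TATAAA matches lay after the annotated start, beginning at position 41 in Ctla4 and 5 in Cd80. No 2 matches overlapped. These matches are letters in a window and do not show that a factor was bound.

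Cd80, Cd86 and Icosl have several probes, so their differences can be compared between probes of 1 gene. The 4 probes printed next are not the brightest of their gene, and they are shown because the comparison of CD80 with CD86 below turns on how far such probes differ. They are given as the array files print them, with no part in capitals. The files do not state exon or UTR.

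Cd80, chr16:38474174-38474233: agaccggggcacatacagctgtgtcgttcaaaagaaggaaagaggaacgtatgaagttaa
Cd80, chr16:38479343-38479402: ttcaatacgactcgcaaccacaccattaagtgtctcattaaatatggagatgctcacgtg
Cd86, chr16:36615381-36615440: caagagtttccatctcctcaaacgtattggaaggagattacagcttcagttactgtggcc
Icosl, chr10:77534559-77534618: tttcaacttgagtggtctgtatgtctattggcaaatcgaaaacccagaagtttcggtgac

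Coordinates of probes here and below are in the mm9 build of the array files.

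Of the 10 genes, 8 were at least 2-fold higher on the tumor-draining array and 0 were at least 2-fold lower. Among all 24656 genes above background on at least 1 array, 11.5% exceeded 2-fold upward and 16.5% downward, and among the 22152 genes above background on both arrays the shares were 11.1% and 15.9%. All 5 receptors passed that size. The 4 measured on both arrays ran from 6.41-fold for Pdcd1 to 17.6-fold for Ctla4, and Tigit, above background on 1 array, was at least 15.1-fold higher. The ligands past that size were Cd86 (8.57-fold), Pdcd1lg2 (8.28-fold) and Cd274 (2.56-fold). Cd80 and Icosl were within 2-fold at their brightest probes. The median log2 difference, tumor-draining minus normal, was 3.28 for receptors and 1.36 for ligands, against 0.10 for all genes measured. With 1 array in each group there is no replicate check and no test was run. When differences were scaled to spike-in RNA, all 10 were at least 2-fold higher, beside 46.0% of all genes higher and 8.01% lower.

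The sort left leukocyte RNA in both samples. Ptprc, which encodes CD45, had a signal of 3702 in normal nodes and 17432 in draining nodes. Each of the 8 pan-leukocyte genes exceeded 2-fold, with a median difference of 1.73 and a summed signal of 28365 in normal and 90173 in draining nodes. Markers of the labeled stroma were present but lower, with all 11 fibroblastic reticular cell genes at least 2-fold lower (median -1.95, summed signal 384216 and 137953), all 9 blood endothelial genes (median -2.98, 53181 and 6662) and all 7 lymphatic endothelial genes (median -2.31, 43330 and 8783). Scaled to spike-in RNA, 6 of 11, 8 of 9 and 6 of 7 of these stromal genes remained at least 2-fold lower. More cells of a type and more RNA per cell cannot be told apart in such samples, and the part of leukocytes in the members' differences was not tested.

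**Figure D1:**
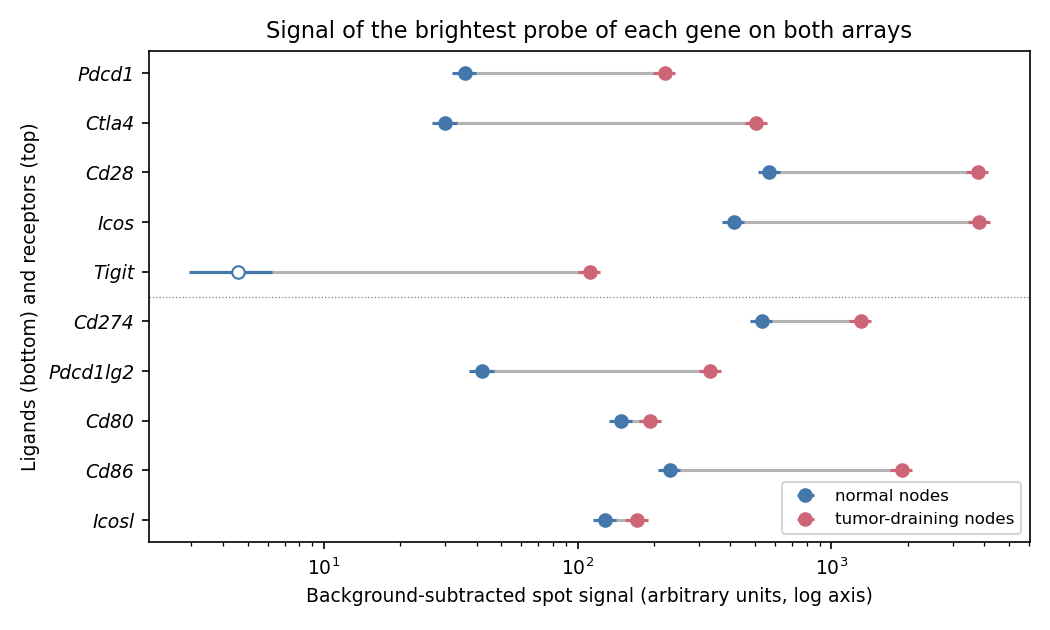
Background-subtracted spot signal (log axis, arbitrary units) of the brightest probe of each member on the normal and tumor-draining arrays, with the error estimate of the scanner software as bars and an open point where the spot was not well above background. Signals of different genes come from different probes and are not comparable, and every gene has its higher signal on the tumor-draining array.

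Cd28, the receptor of the second signal, gave a signal of 569 ± 56.9 in normal nodes and 3767 ± 377 in draining nodes, where ± is the scanner software's error for a single spot (1 array each). Its log2 difference was 2.79 ± 0.20. The ranges given by the spot errors do not overlap. This probe lies at chr1:60830144-60830203 and is assigned to a RefSeq transcript by the array files. A second Cd28 probe, at chr1:60820867-60820926 on an Ensembl transcript, was not well above background in normal nodes (1.83 ± 1.84) and read 37.8 ± 4.24 in draining nodes. Its difference is known only as a bound of at least 2.35 on the log2 scale, and the mean of both probes, 3.61, takes in that dim spot.

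Icos, the inducible co-stimulator carried by activated and follicular helper T cells, had a signal of 411 ± 41.2 in normal nodes and 3822 ± 382 in draining nodes. The difference was 3.28 ± 0.20, or 9.70-fold. Only 75 of 22152 genes above background on both arrays had a larger difference. Its probe lies at chr1:61057071-61057130.

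Of the inhibitory receptors, Ctla4, the high-affinity competitor of CD28 that regulatory T cells carry at high level, had the largest difference of the members measured on both arrays. Its signal was 30.0 ± 3.43 in normal nodes and 505 ± 50.5 in draining nodes, at chr1:60971801-60971860. The difference was 4.13 ± 0.22, and 15 genes exceeded it. The normal signal was close to background, and normexp background correction with an offset of 50, which pulls dim signals together, gave 2.70. After that correction Ctla4 was not the highest member and lay below Icos (3.11) and Cd86 (2.79).

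Pdcd1 encodes PD-1, an inhibitory receptor of activated and exhausted T cells. It had a signal of 35.9 ± 3.95 in normal nodes and 220 ± 22.1 in draining nodes, at chr1:95935064-95935123. The difference was 2.68 ± 0.21, or 1.59 after normexp, and 194 genes had a larger one.

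Tigit, an inhibitory receptor with an ITIM motif in its tail, passed background in draining nodes only. Its signals were 4.60 ± 1.66 and 112 ± 11.3 in normal and draining nodes, at chr16:43649114-43649173. Measured against the lowest signal of a probe above background in normal nodes, 7.72, it was at least 15.1-fold higher, or 3.92 on the log2 scale, and 1.51 after normexp. Ctla4, Pdcd1 and Tigit, the receptors with the dimmest signals in normal nodes, thus had differences that depended on the background correction.

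Among the ligands, Cd86, the B7-2 ligand that antigen-presenting cells raise on activation, differed most. Its brightest probe, at chr16:36660860-36660919, read 231 ± 23.2 in normal nodes and 1896 ± 190 in draining nodes. All 4 Cd86 probes were above background on both arrays, and their differences ran from 2.97 to 3.20. The dimmest, whose sequence is printed above, read 17.6 ± 2.51 and 133 ± 13.4. The 4 values thus spanned 0.23, while the signals in normal nodes spanned 13.1-fold. The median SD between probes of 1 gene was 0.27 over 7599 genes. The brightest probe is assigned to an Ensembl transcript only, and the dimmest to a RefSeq transcript.

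Cd80, the B7-1 ligand that binds the same receptors as CD86, had a smaller difference. Its brightest probe, at chr16:38486772-38486831, read 148 ± 14.9 in normal nodes and 193 ± 19.4 in draining nodes, a difference of 0.44 ± 0.21. The 2 probes printed above gave 1.03 ± 0.24 and 1.05 ± 0.24, with signals of 21.6 and 21.8 in normal nodes and 42.2 and 43.2 in draining nodes. A probe on a predicted transcript, at chr16:38495628-38495688, was not well above background in normal nodes. All 4 probes had positive differences, and the probes lay on both sides of 2-fold. The mean over the 3 probes above background on both arrays was 0.84. Every Cd86 probe had a larger difference than every Cd80 probe.

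Icosl, the ligand of ICOS made by B cells and many non-hematopoietic cells, gave 128 ± 12.9 and 172 ± 17.2 in normal and draining nodes at its brighter probe, chr10:77541662-77541721. The difference was 0.48 ± 0.21. Its other probe, printed above, read 95.4 ± 9.68 and 98.7 ± 10.02, a difference of 0.11 ± 0.21, which is less than its spot error. Neither probe reached 2-fold, while the difference for the receptor of this ligand was 3.28.

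**Figure D2:**
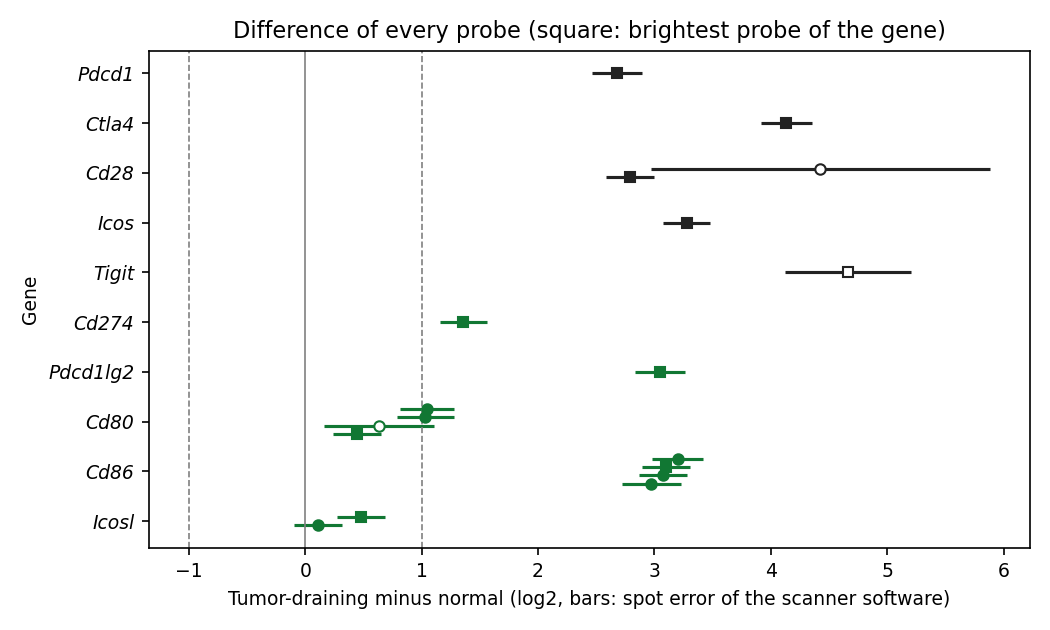
Log2 difference (tumor-draining minus normal) of each of the 18 member probes, with the spot errors of both arrays combined as bars, squares for the brightest probe of a gene, open symbols where 1 array was not well above background, and dashed lines at 2-fold. The 4 Cd86 probes cluster between 2.97 and 3.20, and the Cd80 probes fall between 0.44 and 1.05.

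The PD-1 ligands differed from each other. Cd274, which encodes PD-L1, read 532 ± 53.2 in normal nodes and 1307 ± 131 in draining nodes, at chr19:29462363-29462422, a difference of 1.36 ± 0.20. Pdcd1lg2, which encodes PD-L2, known chiefly from dendritic cells and macrophages, read 42.0 ± 4.61 and 333 ± 33.4, at chr19:29545473-29545532. Its difference was 3.05 ± 0.21, or 2.00 after normexp. Each gene has 1 probe, and no probe of either was saturated.

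Receptors and ligands overlapped in their differences. Cd86 and Pdcd1lg2, with 3.099 and 3.05, lay above Pdcd1 and Cd28 in order, while Cd274, Icosl and Cd80 lay below every receptor. From Icos (3.28) down through Cd86, Pdcd1lg2 and Cd28 to Pdcd1 (2.68), each gap between neighbors, 0.05 to 0.26, was smaller than the combined spot error of the pair, 0.29 to 0.30. The same held for Icosl and Cd80, 0.04 apart. The order within this run of receptors and ligands turned with the processing. Pdcd1lg2 (2.00) lay below Cd28 (2.68) after normexp, and Cd28 as the mean over both its probes (3.61) lay above Cd86 and Pdcd1lg2. The median of receptors minus that of ligands was 1.92, or 1.43 after normexp.

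**Figure D3:**
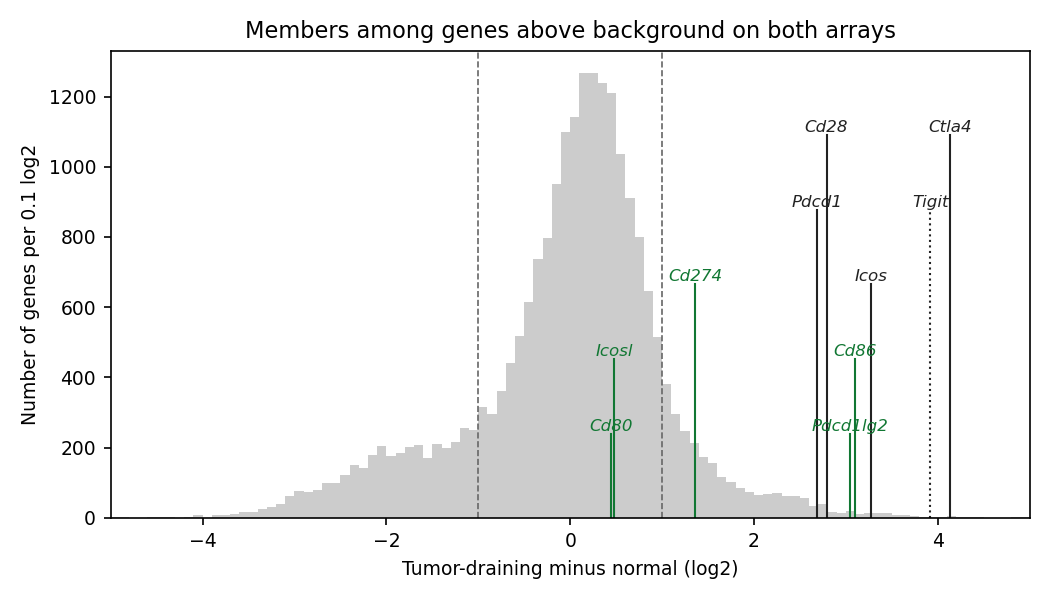
Histogram of the log2 difference of 22152 genes above background on both arrays, with lines at the values of receptors (black) and ligands (green), a dotted line for Tigit, whose value is a lower bound, and dashed lines at 2-fold. The receptors lie from 2.68 to 4.13, in the thin upper tail, while Cd80 and Icosl stand within the main body.

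Several members are neighbors in the genome. Position was not used to choose them, but they were chosen as gene families, so it is not independent of that choice. Cd28, Ctla4 and Icos follow each other on chromosome 1 with no other protein-coding gene between them in the GRCm38.p6 gene table, and their probes span 236 kb in mm9. The adjoining protein-coding genes were lower, with log2 differences of -1.62 for Raph1 and -1.99 for Pard3b. Cd274 and Pdcd1lg2 are adjacent on chromosome 19, with 83.1 kb between their probes. The genes on either side, Plgrkt and Ric1, had differences of 0.57 and 0.24. One gene further out, Abi2 was at -1.47 and Ermp1 at -0.66, and Rln1 was not well above background on either array. Nrp2, beyond Pard3b, was 1.10 higher at its brightest probe, but its 3 probes above background ranged from -2.81 to 1.10. The flanking genes were chosen by position after values were seen.

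Other checkpoint receptors were set beside the members. Of 10 other co-inhibitory receptors, 8 were on the array and 7 were above background, and 5 of the 7 were at least 2-fold higher (median 2.29, or 0.96 after normexp). Havcr2, which encodes TIM-3, and Klrg1, a lectin-like receptor of effector T and NK cells, had the largest differences, at 3.03 and 2.83, although the Havcr2 signal in normal nodes was 9.59, near the lowest signal above background. Lag3, which binds MHC class II, and Vsir, which encodes VISTA, were at -0.08 and -0.06. All 8 genes listed as other co-stimulatory receptors were at least 2-fold higher (median 2.35, or 1.85 after normexp). They included Tnfrsf9 (4-1BB) at 2.69, Tnfrsf4 (OX40) at 2.65 and Cd40lg, known only as a bound of at least 1.24. The lowest measured on both arrays were Cd226, the activating counterpart of TIGIT, at 1.36, and Cd2, an adhesion receptor, at 2.19.

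Ligands of the other checkpoints went both ways. Of 13 genes, 12 were above background, 4 were at least 2-fold higher and 1 lower by that size (median -0.02). The lower one was Nectin2, a ligand of TIGIT and CD226, at -2.63, and Cd276 (B7-H3) followed at -0.96. Cd48, a partner of CD2 and CD244, and Tnfsf4, the OX40 ligand, were the highest measured on both arrays, at 1.61 and 1.44. Pvr, the main ligand of TIGIT, differed by -0.03. Tigit was at least 15.1-fold higher, while neither of these ligands of TIGIT was higher.

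Genes that act below the receptors were mostly higher. Of 14 genes of signaling below CD28 and ICOS, 10 were at least 2-fold higher and 0 lower (median 1.77). For comparison, the median was 1.73 for pan-leukocyte genes and 2.43 for the T cell markers described below. Grap2, an adaptor that binds the tail of CD28, was at 2.42. Akt1 (-0.80) and Pik3r1 (0.18), which many cell types express, were lowest. Of 8 phosphatases and adaptors tied to PD-1, CTLA-4 and TIGIT, 4 were at least 2-fold higher (median 1.06). Sh2d1a, the adaptor SAP, was at 2.77, and Trat1, which stabilizes CTLA-4 at the surface, at 2.76. The broadly expressed Ptpn11, the phosphatase SHP-2 that PD-1 recruits, and Ap2m1, which takes CTLA-4 into vesicles, were at -0.38 and -0.33.

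Of 10 genes that regulate PD-L1 or carry interferon-gamma signals, 3 were at least 2-fold higher and 1 lower (median 0.41). Ifng, which encodes interferon-gamma, was at 2.21. Irf1, a factor known to drive PD-L1 transcription, was at -0.08, and Cmtm4, which protects PD-L1 from breakdown, at -1.48. Of 12 transcription factors of T cell exhaustion, 7 were at least 2-fold higher and 0 lower (median 1.56). That median lay below those of T cell markers (2.43) and pan-leukocyte genes (1.73). Eomes and Tcf7, factors of memory and exhausted T cells, were at 2.46 and 2.23, while Nr4a1 and Tox2 were at 0.26 and -0.93.

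**Figure D4:**
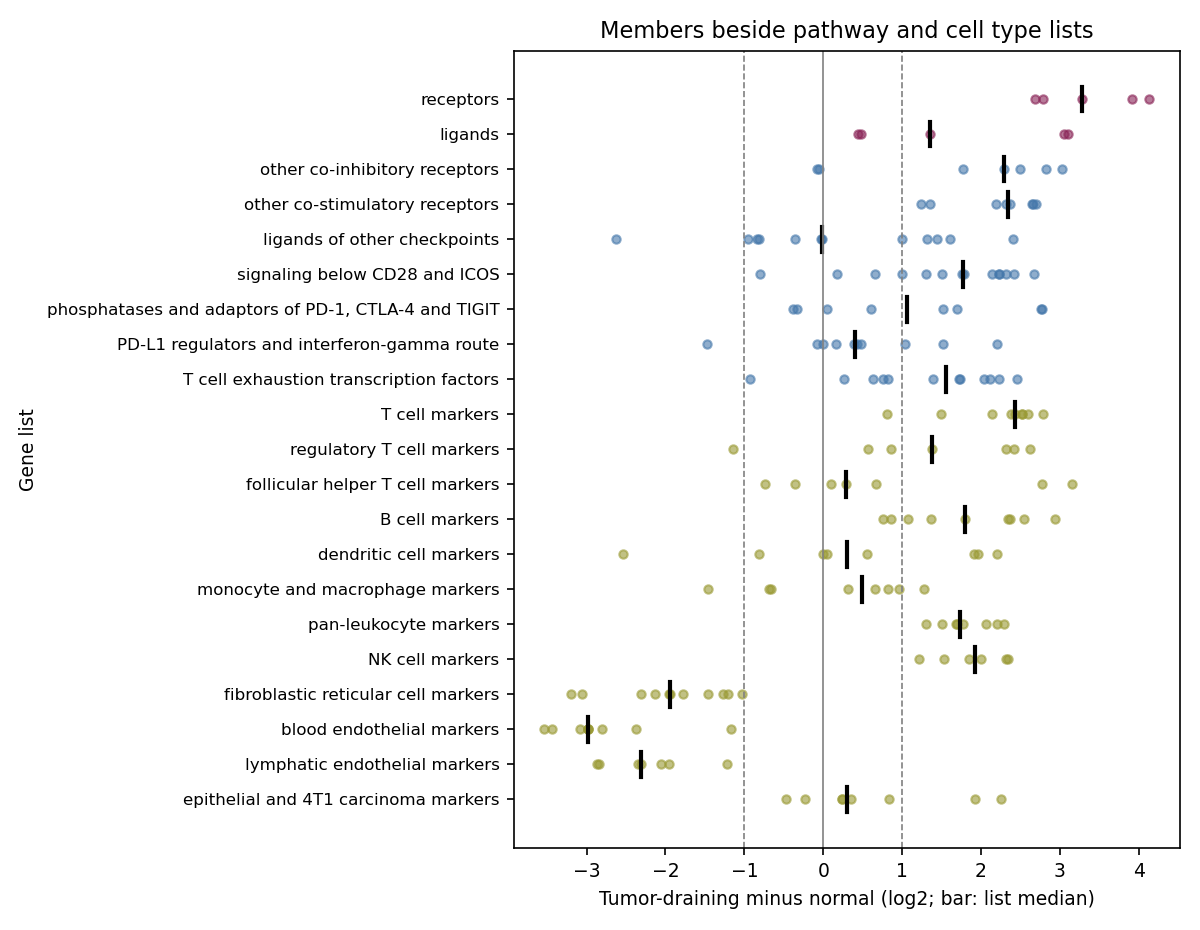
Log2 difference (tumor-draining minus normal) of every gene above background on at least 1 array in the member, pathway and marker lists, with a black bar at each list's median, bounds for genes above background on 1 array only, and dashed lines at 2-fold. The receptors have a median of 3.28 beside 2.43 for T cell markers, and the 3 stromal lists lie wholly below 0.

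The receptors were then placed beside markers of the cells known to carry them. Among 9 T cell markers on the array, 8 exceeded 2-fold, with a median of 2.43 and a range from 0.81 to 2.78, and their summed signal was 9985 in normal nodes and 43196 in draining nodes. Cd3e, part of CD3, was at 2.13. Ctla4, Icos and Tigit exceeded all 9 markers, by 1.70 (Ctla4), 0.85 (Icos) and at least 1.48 (Tigit) over the marker median. Cd28 exceeded the highest marker, Cd8a, by less than its spot error, and Pdcd1 lay within the range of the markers. Cd28 lay below the highest marker with quantile or loess normalization, in the authors' table and as the mean over probes above background on both arrays. After normexp correction the excess over the marker median was 0.40 for Ctla4 and 0.80 for Icos, and for Tigit it was -0.79. The offset of that correction lowers the differences of dim genes such as Ctla4 and Tigit.

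Markers of T cell subsets did not move as 1 group. Among 7 regulatory T cell genes, 4 were at least 2-fold higher and 1 lower by that size (median 1.38, or 0.73 after normexp). Foxp3, the defining factor of that lineage, was 6.17-fold higher at 2.63, and Lrrc32, which endothelial cells and platelets also express, was at -1.14. Their summed signal was 6715 and 6254 in normal and draining nodes, and 1296 and 3903 over the 6 genes without Lrrc32. Lrrc32, which belongs to the list as chosen, read 5419 and 2351, so the direction of the sum depends on this gene. Of 7 follicular helper markers, 2 were at least 2-fold higher (median 0.28, or 0.66 after normexp), Cxcr5 at 3.15, which B cells share, and Sh2d1a at 2.77, while Bcl6 was at 0.67 and Il21 at 0.09. Their summed signal was 6722 and 12638. The Il21 signal in normal nodes was 13.0, close to the lowest signal above background there, 7.72. All 6 NK cell markers were at least 2-fold higher (median 1.92, summed signal 3712 and 15038).

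The ligands were placed beside markers of antigen-presenting cells. Among 9 B cell markers, 7 exceeded 2-fold (median 1.80, highest 2.94, summed signal 26852 and 63196). Of 8 dendritic cell markers above background, 3 were at least 2-fold higher and 1 lower by that size (median 0.30, summed signal over 9 genes 51889 and 91027). Most of that sum came from Siglech (39238 and 37544) and Ccr7 (11915 and 52409), so its rise was that of Ccr7. Of 8 monocyte and macrophage markers above background, 1 was higher and 1 lower (median 0.49, summed signal over 9 genes 48121 and 29428). The largest part of the latter sum was Ly6c2 (29694 and 10366). Xcr1 and Fcgr1, which define cross-presenting dendritic cells and macrophages, were not well above background on either array. Cd86 and Pdcd1lg2 exceeded every B cell, dendritic and myeloid marker, although Pdcd1lg2 fell below the highest B cell and dendritic cell marker after normexp. Both lay above the highest B cell marker, Bank1 (2.94), by less than their spot errors. Cd274 exceeded every monocyte and macrophage marker, the highest (Tyrobp, 1.28) by less than the spot error of Cd274. From the B cell median Cd274 differed by -0.44. Cd80 and Icosl were near the dendritic median, with differences of 0.14 and 0.18 from it. From the monocyte and macrophage median they differed by -0.04 and -0.0040. They differed by -1.36 and -1.32 from the B cell median and by -1.29 and -1.25 from the pan-leukocyte median. Epithelial markers, which 4T1 cells could bring, had a median of 0.30 with 2 of 8 at least 2-fold higher. The higher ones were Krt14 at 2.25 and Krt5 at 1.92, while Epcam was at 0.35. The part of these cell types in the members' differences was not tested.

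For members measured on both arrays, the gene of the fixed lists with the closest difference was looked up. With 2 arrays a pattern is a single difference, so closeness says little. Cd28 (2.79) was closest to Cd8a (2.78), and Cd86 (3.099) and Icos (3.28) to Cxcr5 (3.15). Pdcd1lg2 (3.05) was closest to Havcr2 (3.03) and Cd274 (1.36) to Cd226 (1.36). Cd80 (0.44) was closest to Cmtm6 (0.42) and Icosl (0.48) to Stat3 (0.48). Ctla4 had no close partner, its nearest gene being Icos at 3.28.

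**Figure D5:**
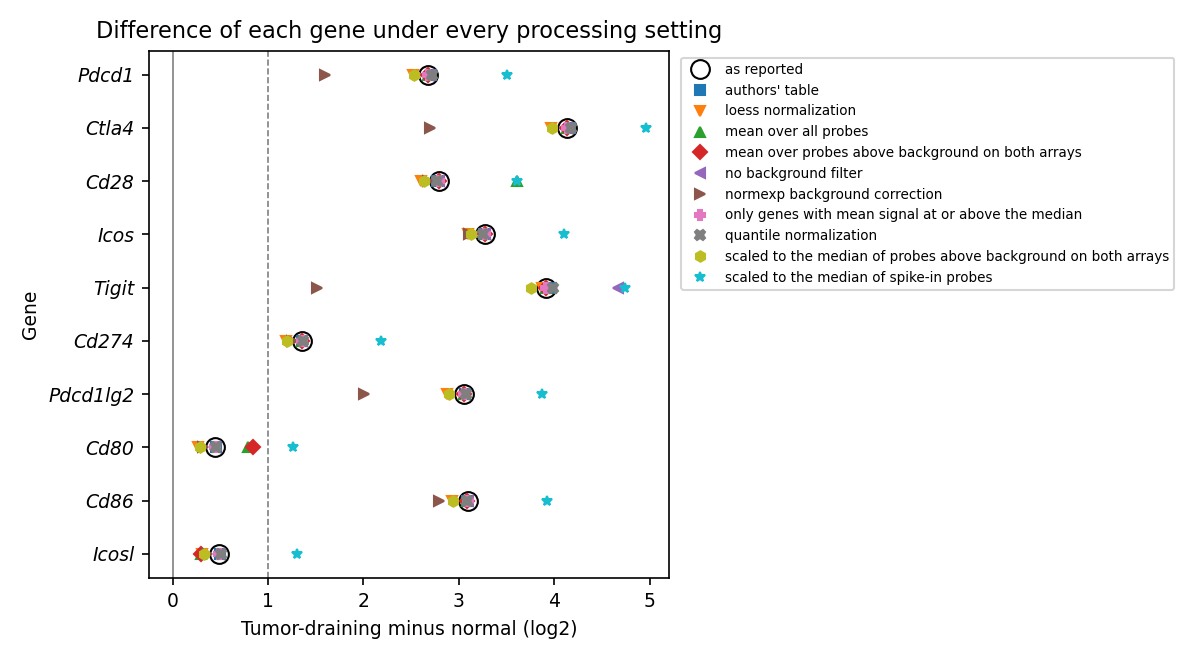
Log2 difference (tumor-draining minus normal) of each member under the reported processing (open circle) and 10 alternatives, with a dashed line at 2-fold. The 8 higher members stay above 2-fold at each setting, and Cd80 and Icosl pass it only when scaled to spike-in RNA.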

How the data were processed

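Total RNA of sorted cells was labeled with Cy3 and hybridized to 2 Agilent mouse arrays on 1 slide. The deposited scanner files hold background-subtracted spot intensities from Feature Extraction 12.0.3.1, per the file headers, and the submitters' processing notes name Feature Extraction 10.7 and limma. The value table that the authors deposited is on the log2 scale, and its steps are not given in the sources used here. Its column medians were 4.85 and 4.86, it correlated with the log2 signal of each array (r = 0.9999), and scale and centering beyond that stay unknown. A 1-color value has no ratio direction.

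The main value was the log2 processed signal minus the 75th percentile of its array (signals of 374 and 358). Control spots and spots marked non-uniform or outlying were left out, and the brightest probe stood for a gene. All 18 member probes were used, 1 spot each, and were found both by the name in the files and by RefSeq accession. Above background means the software's mark on at least 50% of a probe's spots (36783 probes on the normal array, 35570 on the tumor-draining array). Where only 1 array passed, the value is a bound against the lowest passing signal of the other. A difference of 2-fold was called by size alone. The ± values combine the software's errors for single spots and hold no difference between mice, and having 2 arrays limits precision. Spots of 1 probe had a median SD of 0.050 (285 probes).

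Members and lists were chosen with earlier results of these data known. Named genes were all members, the 2 highest and 2 lowest of each pathway list, Ptprc, Cd3e and the gene of closest difference. Some genes that this rule names are not reported here. Others (Pvr, single markers and the flanking genes) were named after values were seen. Pvrig, Cd244 and Trac were not found on the array. The calculation was tested on simulated data. Software was Python 3.11.15, numpy 2.4.6, pandas 2.3.3, R 4.3.3 and limma 3.58.1.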

Additional observations from a re-analysis of the deposited data

How the results depend on the processing

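Alternatives were normexp (offset 50), quantile and loess normalization (span 0.3), scaling to probes above background on both arrays or to 6 spike-in probes with a signal under 60000, no background filter, a signal filter, both kinds of mean over probes, the authors' table, and thresholds of 1.5-fold and 3-fold. The counts of 8 higher and 0 lower members stayed within 1.5 times under each. The receptor median of 3.28 was 2.68 with normexp, 3.61 as the mean over all probes and 4.10 when scaled to spike-ins. The ligand median of 1.36 was 2.18 when scaled to spike-ins. The receptor median minus the ligand median, 1.92, was 1.43 with normexp and 2.25 as the mean over all probes. Of 290 values for single members and list medians, 53 moved by more than the between-probe SD of 0.27, 29 of them under spike-in scaling, where the spike-in shift of -0.82 raises every difference, and 11 under normexp. No value of at least 2-fold changed sign. The amount of spike-in RNA added to each sample is not known here. Dim signals limit Ctla4, Pdcd1, Pdcd1lg2 and Tigit. A slide block was not run, since both arrays lie on 1 slide. No paired analysis was possible because each group has 1 array.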
